A study of Mus musculus with 30 samples.

Results

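Pmel, Gdf11 and Sarnp are 3 protein-coding genes of mouse chromosome 10, and their rows are 3 of the 56484 gene rows counted in 30 libraries of the embryonic day 12 (E12) mouse eye. They were singled out because almost no counts were listed under Pmel, while the row of its neighbour Gdf11 held many counts in every library, with more in the presumptive retinal pigment epithelium (pRPE) than in the optic stalk (OS). These levels and the pRPE to OS difference chose the rows, so they are given as a description without a test. Sarnp lies between the other two. All 3 rows passed the filter of more than 10 counts in at least 3 libraries, as did 8337 rows in all.

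The libraries were made by Geo-seq, in which small areas of a cryosection are cut out with a laser and their cDNA is amplified and sequenced, which ties every library to a known place in the eye. The labels give every library the genotype Control, and the methods describe controls as littermates lacking the Dct-Cre transgene, on a C57Bl6/J background, with 4 control embryos at E12. The labels do not tie a library to an embryo. The paper's supplement describes a mouse ID for each E12 sample, which was not used here. The p-values therefore measure the spread between libraries, some of which share an embryo. The pRPE was sampled in the dorsal distal (n = 3), dorsal proximal (n = 4), ventral distal (n = 4) and ventral proximal (n = 3) regions. The OS was sampled in the dorsal distal (n = 3), dorsal middle (n = 2), dorsal proximal (n = 2), ventral distal (n = 3), ventral middle (n = 4) and ventral proximal (n = 2) regions. The labels place 14 libraries in batch A and 16 in batch B, and every region had libraries in each batch.

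Pmel encodes the protein whose fibrils form the scaffold on which melanin is laid down in melanosomes, and it is a common marker of pigment cells, the RPE included. Gdf11 encodes a secreted ligand of the TGF-beta family that signals through activin receptors and limits the number of ganglion cells made by retinal progenitors. Sarnp encodes an RNA-binding protein of the TREX complex, which couples transcription to the export of mRNA from the nucleus. In the eye cup the pRPE is the outer layer that begins to make pigment, and the OS is the tube that joins it to the brain.

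In the GENCODE M21 annotation of GRCm38, the build named in the submitters' processing notes, Pmel lies on the plus strand at chr10:128704195-128720238 and Sarnp on the plus strand at chr10:128817333-128877629. Gdf11 lies on the minus strand at chr10:128882295-128891718. The end of Pmel and the start of Gdf11 are 162056 bases apart, and Sarnp ends 4665 bases from Gdf11. The exons of Gdf11 cover 4062 bases, those of Pmel 2292 and those of Sarnp 1360. The sequence below is the Pmel coding exon of 206 bases at chr10:128718598-128718803, in capitals, with 20 intronic bases on each side in lower case (chr10:128718578-128718823, GRCm38, plus strand). It is shown because it is the Pmel coding exon that Gdf11 exons cover whole at all 57 distances singled out further on, of 20001 by which the annotation was moved.
Pmel coding exon: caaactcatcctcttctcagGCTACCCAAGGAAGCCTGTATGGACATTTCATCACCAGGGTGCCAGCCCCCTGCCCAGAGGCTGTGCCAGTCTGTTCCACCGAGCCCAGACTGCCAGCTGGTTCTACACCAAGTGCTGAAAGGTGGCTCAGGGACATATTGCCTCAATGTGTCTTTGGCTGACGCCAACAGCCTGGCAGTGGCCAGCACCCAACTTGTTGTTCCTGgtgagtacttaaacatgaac
The sequences next to it are the 250 bases before the RefSeq start of Gdf11 (chr10:128891719-128891968, GRCm38.p6, minus strand) and of the pigment cell gene Gpnmb (chr6:49036268-49036517, GRCm38.p6, plus strand), a row whose levels were among those most like Gdf11. They are shown in lower case because neither holds CACGTG or CATGTG, the letters bound by the pigment cell factor MITF, on either strand.
Gdf11 upstream: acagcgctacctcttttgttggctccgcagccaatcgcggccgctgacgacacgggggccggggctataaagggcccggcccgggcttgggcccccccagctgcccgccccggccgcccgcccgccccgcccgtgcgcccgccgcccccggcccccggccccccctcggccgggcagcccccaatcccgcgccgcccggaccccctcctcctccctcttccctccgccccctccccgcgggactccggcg
Gpnmb upstream: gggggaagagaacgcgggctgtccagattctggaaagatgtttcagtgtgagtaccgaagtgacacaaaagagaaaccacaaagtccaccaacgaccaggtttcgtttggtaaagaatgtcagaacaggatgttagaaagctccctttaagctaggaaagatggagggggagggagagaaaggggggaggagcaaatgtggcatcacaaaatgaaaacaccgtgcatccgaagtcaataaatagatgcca
Of 32851 RefSeq promoters cut to the same 250 bases, 17.6% held at least 1 of these motifs, CACGTG in 6.02% and CATGTG in 12.3%. Among the pigment genes of the list used below, 12 of 16 had a promoter entry, and 9 of those 12 held a motif in at least 1 entry. Counted by promoter, as the 17.6% is, 10 of their 16 entries held a motif. The upstream bases of Sarnp held neither motif, and Pmel and Slc45a2 had no entry.

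The libraries held 1421918 to 6041021 counts each, of which 30.4% to 55.4% were on mitochondrial rows, and 56.8% of the values that passed the filter were 0. Only 326 nuclear rows had a count in all 30 libraries. Of 41 rows of widely expressed genes, 16 had no count in any library and 4 had a count in at least 15, Ybx1 and Tuba1b holding 65.2% and 16.7% of their summed counts. A value given here is therefore what is listed under a gene's symbol. The table carries no read positions, so which transcripts the reads came from was not tested.

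The Gdf11 row had counts in all 30 libraries, from 1918 to 27184, and held 0.811% of all counts on nuclear rows. It ranked 10 among nuclear rows by its summed counts. In CPM (a gene's counts scaled to the same total of all counts in each library), Gdf11 stood at 2973, 5878 and 8346 in the 3 dorsal distal pRPE libraries. The 4 dorsal proximal pRPE libraries had 5375, 5999.9, 8536 and 8595 CPM. A single library, of the dorsal distal region, was thus well below the other 6 of the dorsal pRPE. In the ventral distal pRPE the level was 2329, 5541, 6145 and 8563 CPM. In the ventral proximal pRPE it was 3450.1, 4682 and 5243 CPM. The dorsal and ventral pRPE overlapped, although every dorsal proximal library was above the 3 ventral proximal ones.

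In the OS, the dorsal distal libraries had 3989.8, 6962 and 9583 CPM of Gdf11, the last being the highest value of all 30 libraries. The dorsal middle OS had 4299 and 4909 CPM, and the dorsal proximal OS 1681 and 7599 CPM. Of the 7 dorsal OS libraries, 1 was below and 1 above all pRPE libraries. The ventral distal OS libraries had 747, 1800.0 and 3904 CPM. The 4 ventral middle OS libraries had 1127, 1506, 1534 and 2632 CPM, and the ventral proximal OS 724 and 1631 CPM. Of the 9 ventral OS libraries, 6 were below every dorsal OS library, and 6 of the 7 dorsal libraries were above every ventral one.

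**Figure D1:**
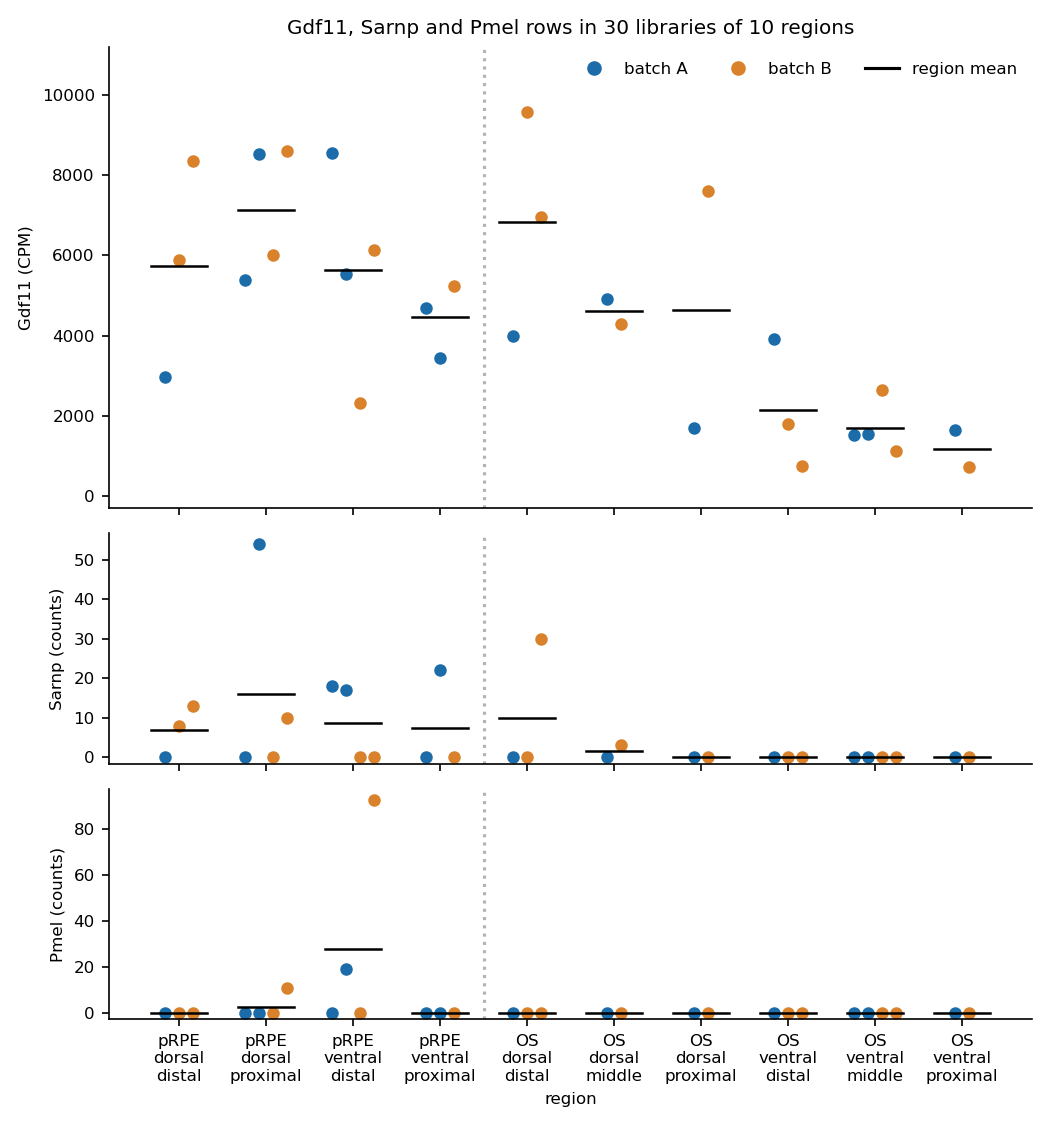
Levels of the 3 rows in the 10 regions. Points are libraries, coloured by batch, and lines are region means; the upper panel gives Gdf11 in CPM and the lower panels Sarnp and Pmel in counts. The ventral OS libraries of Gdf11 sit between 724 and 3904 CPM, Sarnp has counts in 9 libraries and Pmel in 3.

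By mean CPM the order of the regions was pRPE dorsal proximal (7126 ± 1681, SD, n = 4), OS dorsal distal (6845 ± 2799, n = 3), pRPE dorsal distal (5733 ± 2689, n = 3), pRPE ventral distal (5644 ± 2567, n = 4) and OS dorsal proximal (4640.0 ± 4184, n = 2). There followed OS dorsal middle (4604 ± 431.5, n = 2), pRPE ventral proximal (4458 ± 917, n = 3), OS ventral distal (2150.2 ± 1608, n = 3), OS ventral middle (1699.7 ± 649, n = 4) and OS ventral proximal (1177 ± 641, n = 2). The ranges of all 9 neighbouring pairs in this order overlapped. Taken by tissue, the 14 pRPE libraries averaged 5833 ± 2093 CPM (SD) and the 16 OS libraries 3414 ± 2682, a ratio of 1.71. Taken by batch, the ratio was 2.04 (batch A) and 1.54 (batch B), and with medians in place of means it was 2.58. On the log2 scale of the edgeR fit the pRPE to OS difference of Gdf11 was 1.08 (SE 0.27), beside a median of 1.21 over all 8337 rows, of which 0.252% were called. In such bulk samples, fewer cells of a type and less RNA per cell cannot be told apart.

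The reason given for the choice of the rows did not use the dorsal to ventral axis, although earlier results of these data were known. In the paper the dorsal distal and middle OS clustered with the pRPE, so this axis is not independent of the pRPE to OS difference. Along it Gdf11 was higher in the dorsal OS. The row averaged 5575 ± 2640 CPM in the dorsal OS (SD, n = 7) and 1734 ± 999 CPM in the ventral OS (n = 9), a ratio of 3.22. In edgeR's quasi-likelihood test over all rows, with 1 level per region and the batch as a covariate, the log2 fold change was 1.88 (SE 0.38). After Benjamini-Hochberg adjustment over 8337 rows the p was 0.0690, so the difference did not pass the threshold of 0.05. In this comparison 1 row was called, 0.012% of those tested (621 at an unadjusted p under 0.05), and that row was Gpnmb, a transmembrane protein of melanosomes and lysosomes that is related to Pmel. The median over all rows was a log2 difference of 0.53. With DESeq2, the tool of the study's methods, the log2 fold change of Gdf11 was 1.81 and its adjusted p 0.00179. DESeq2 called 1368 of the 8337 rows. An exact permutation test of log2(CPM + 1) of this row alone, chosen after its values were seen, gave a two-sided p of 0.0014 for 7 against 9 libraries.

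Within the batches the difference had the same direction, and whether its size differed between them was not tested. In batch A the 3 dorsal OS libraries averaged 3527 CPM and the 4 ventral OS libraries 2144 CPM, and the exact permutation p was 0.114. In batch B the 4 dorsal libraries, 4299 to 9583 CPM, were all above the 5 ventral libraries, 724 to 2632 CPM. The exact permutation p was then 0.0159, the smallest that 4 against 5 libraries allow. Fitted in batch B alone the log2 fold change was 2.68 (edgeR adjusted p 0.00298), and in batch A alone 0.76 (adjusted p 0.514). Dorsal exceeded ventral at each position of the OS, by 3.18-fold in the distal, 2.71-fold in the middle and 3.94-fold in the proximal regions. The exact permutation p was 0.1, 0.133 and 0.333, the smallest that these 2 to 4 libraries a side allow. The proximal value rests on OS dorsal proximal replicate 2, without which the lone dorsal library had 1681 CPM against a ventral mean of 1177 CPM.

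Marker rows of the labelled tissues and of other cell types were sparse. Of 10 RPE regulators and visual cycle genes, 5 were at 0 in every library, Pax6 and Otx1 among them, and Otx2, which marks the RPE, had counts in 3 libraries. Otx2 had 134 counts in the dorsal OS, 0 in the ventral OS and 58 in the pRPE. Rpe65 had 167 counts, all in 1 dorsal OS library, and Best1 and Rdh5 were likewise counted in 1 dorsal OS library each and at 0 in the pRPE, whereas Rlbp1 had 13 counts in 1 pRPE library and 0 in the OS. The stalk list, with 3 of 12 rows at 0, summed to 22.2 to 1810.1 CPM in the dorsal and 263 to 3515 CPM in the ventral OS, and Cdh6 held 86.2% of its counts. Cdh6 had 7082 counts in the dorsal and 24593 in the ventral OS, the stalk factor Pax2 803 and 2826, Zic4 7 and 937, and Ptch1 0 and 225, while Zic1 had 242 and 0. The neural crest melanoblast list, with 2 of 6 rows at 0, summed to 0 to 548 CPM in the dorsal and 0 to 187 CPM in the ventral OS. Erbb3, with 87.4% of its counts, had 2371 in the dorsal and 808 in the ventral OS, Pax3 381 and 0, the defining marker Sox10 11 and 0, and Kit 4 and 221. The mesenchyme list summed to 0 to 255 CPM in the dorsal and 0 to 1123 CPM in the ventral OS, with Twist1, Prrx1 and Foxc1 at 0. Col1a2, with 89.1% of its counts, had 543 counts in the dorsal and 4093 in the ventral OS, and Col3a1 587 and 192. The neuron list summed to 4.55 to 205 CPM in the dorsal and 0 to 535 CPM in the ventral OS, with Tubb3 at 0. The retina, blood and endothelium lists had 3 of 8, 6 of 9 and 3 of 6 rows at 0, and reached 493.4, 56.8 and 189 CPM in the dorsal and 205, 44.4 and 750 CPM in the ventral OS. Their part in the Gdf11 difference was not tested.

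In the pRPE, Gdf11 averaged 6529 ± 2093 CPM in the dorsal and 5136 ± 1994 CPM in the ventral libraries (SD, n = 7 each), and the ranges overlapped. The log2 fold change was 0.57 (SE 0.39, edgeR adjusted p 0.618), below the median of 0.86 over all rows, and 0% of rows were called (1038 at an unadjusted p under 0.05). Between distal and proximal pRPE the log2 fold change was -0.10 (SE 0.39, adjusted p 1), with 0% of rows called. Between distal and proximal OS it was 0.79 (SE 0.47, edgeR adjusted p 0.764), again with 0% called. The dorsal to ventral difference was larger in the OS than in the pRPE by 1.31 on the log2 scale (SE 0.53), and this interaction had an edgeR adjusted p of 0.994 over all rows, with 0% called.

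The Pmel row held 123 counts in all. They came from 3 pRPE libraries, ventral distal replicate 4 with 93, ventral distal replicate 2 with 19 and dorsal proximal replicate 4 with 11. The other 27 libraries had 0, among them all 16 of the OS, where 0 of 40895093 counts allows a level of up to 0.0734 CPM (3 counts over the group, counting error only). In the 3 libraries with Pmel counts, the Gdf11 row held at least 133 times as many. Per kilobase of exon, the mean over 30 libraries was 3105 counts for Gdf11, 4.29 for Sarnp and 1.79 for Pmel, so the level listed under Pmel was the lowest of the 3 at equal length. No fit gave Pmel a usable standard error, since most regions were at 0.

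The Sarnp row held 175 counts in 9 libraries. In the pRPE, 7 of 14 libraries had counts, 8 and 13 in the dorsal distal, 10 and 54 in the dorsal proximal, 17 and 18 in the ventral distal and 22 in the ventral proximal region. In the OS, 2 of 16 libraries had counts, 30 in dorsal distal replicate 3 and 3 in dorsal middle replicate 2. Both were dorsal, and the 9 ventral OS libraries had 0 of 21171084 counts, which allows up to 0.142 CPM. Summed over libraries, Sarnp stood at 3.36 CPM in the pRPE and 0.807 CPM in the OS, and the ratio of mean CPM was 3.42. Without OS dorsal distal replicate 3 that ratio was 38.4, and in batch B alone it was 1.01. Within the pRPE the log2 fold change was 1.00 between dorsal and ventral (SE 1.9, edgeR adjusted p 1) and -0.20 between distal and proximal (SE 3.02, adjusted p 1). At this depth no difference of Sarnp along these axes was detectable, and the OS contrasts had no usable standard error.

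Whether the Gdf11 row follows pigment genes was asked within each tissue, over libraries, so that the pRPE to OS difference did not enter. The list held 16 genes of melanin synthesis and melanosomes other than Pmel. Of these, 7 had no count in any library, among them Tyr, Tyrp1 and Dct, the enzymes of melanin synthesis. The others were Rab38 and Rab32, which carry those enzymes to melanosomes, Mlph, which links melanosomes to the transport motor, and Tspan10. Mlana, Slc24a5, Gpr143 and Rab27a had counts in 1 to 5 libraries. The remaining 5 were Slc45a2, a melanosome transporter (20 libraries), Gpnmb (24), Trpm1, a cation channel of melanocytes (26), Oca2, a melanosome channel (21), and Mitf, the pigment cell transcription factor (18). Slc45a2 made up 52.9% and Gpnmb 29.2% of the summed CPM of the list.

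Across the 14 pRPE libraries, Gdf11 was higher where the summed pigment rows were higher. Spearman's rho was 0.88 (permutation p = 2e-05, adjusted over 8 relations 0.00016) and Pearson's r on log2(CPM + 1) was 0.67 (permutation p = 0.00776, adjusted 0.0584). Leaving out the 2 libraries farthest from the median of the pigment sum gave r = 0.78. In batch A rho was 0.96 (exact p = 0.00278, adjusted 0.0111, n = 7) and in batch B 0.93 (exact p = 0.00675, n = 7), which missed the threshold after adjustment (0.054). Pearson's r was 0.89 in batch A (exact permutation p = 0.00397) and 0.49 in batch B (exact permutation p = 0.24). Both measures are shares of the same total, which is up to 55.4% mitochondrial. With mitochondrial counts left out of that total, rho in the pRPE was 0.63 and its adjusted permutation p 0.0759.

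Across the 16 OS libraries rho was 0.77 (permutation p = 0.00103, adjusted 0.00412) and r was 0.59 (permutation p = 0.0146, adjusted 0.0584), and r was 0.84 without the 2 farthest libraries. In batch A rho was 0.79 (exact p = 0.048, adjusted 0.128, n = 7) and in batch B 0.78 (exact p = 0.0172, adjusted 0.0689, n = 9), so neither batch alone passed the threshold after adjustment. Pearson's r was 0.66 in batch A (exact permutation p = 0.0659) and 0.58 in batch B (exact permutation p = 0.0849). Since Gdf11 was lower in most ventral OS libraries, the dorsal and ventral libraries were also taken separately, a choice made after the values were seen. Among the 7 dorsal OS libraries rho was 0.89 (exact p = 0.0123), and among the 9 ventral OS libraries 0.33 (exact p = 0.385). The summed pigment rows ranged from 0 to 1571 CPM in the ventral OS (median 82.5) and from 116 to 2316 CPM in the dorsal OS (median 566). In the pRPE the same split gave rho of 1 among the 7 dorsal (exact p = 0.000397) and 0.68 among the 7 ventral libraries (exact p = 0.109).

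**Figure D2:**
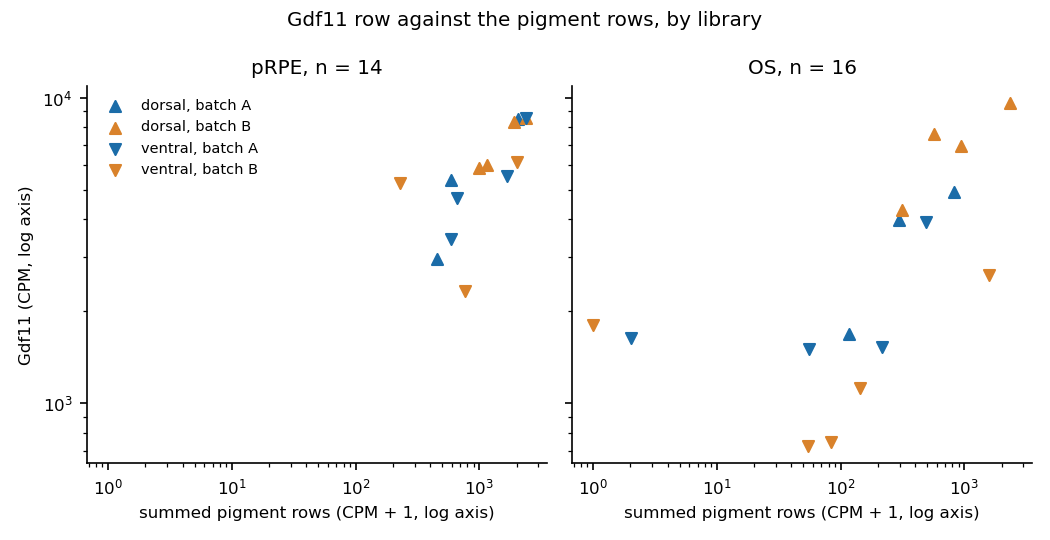
Gdf11 (CPM) against the summed pigment rows (CPM + 1) in each library, both on log axes, for the 14 pRPE and 16 OS libraries. Triangles pointing up are dorsal and those pointing down ventral, coloured by batch. Gdf11 rises with the pigment rows among pRPE and dorsal OS libraries (rho 0.88 over the pRPE and 0.89 over the dorsal OS), and the ventral OS libraries reach at most 3904 CPM of Gdf11, at pigment sums of 0 to 1571 CPM.

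The same measure against other rows was smaller. With the widely expressed rows rho was 0.56 in the pRPE (adjusted permutation p = 0.101) and 0.25 in the OS (adjusted 0.408). With the number of rows that had a count, it was 0.44 in the pRPE (adjusted 0.187) and -0.21 in the OS (adjusted 0.436). With the Sarnp row it was 0.53 in the pRPE (adjusted 0.107) and 0.37 in the OS (adjusted 0.234). None of these 6 relations passed the threshold, and the differences between relations were not tested. Within batch A of the OS alone, however, the widely expressed rows gave rho = 1 over 7 libraries (exact p = 0.000397).

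Taken row by row, Slc45a2 gave rho = 0.86 with Gdf11 in the pRPE and 0.73 in the OS, and Gpnmb 0.70 and 0.76. Mitf gave 0.33 and 0.57, Oca2 0.30 and -0.03, and Trpm1 -0.14 and 0.24. The relation of the summed list mostly reflects Slc45a2 and Gpnmb, which held 52.9% and 29.2% of its summed CPM. Mitf also followed Gdf11 in the OS (0.57), while Oca2 (-0.03) and Trpm1 (0.24) gave lower values there. Over 3240 nuclear rows with a count in at least 15 libraries, the median rho with Gdf11 was 0.13 in the pRPE and -0.09 in the OS. Over all 30 libraries, in which the pRPE to OS difference takes part, the 5 rows most like Gdf11 among 2728 rows with a mean of at least 20 counts were Scara5 (rho 0.85), Gpnmb (0.83), Ugcg (0.76), Slc45a2 (0.76) and Cdh1 (0.75). Scara5 is a scavenger receptor that takes up ferritin, Ugcg makes glucosylceramide and Cdh1 is E-cadherin. These 5 values are a description over libraries that share regions and depth, with no test.

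Of 80 genes within 500 kb of Pmel in the annotation, 62 had a row. There was no count in 20 of them, counts in some libraries in 36 and counts in all 30 libraries in 6, and Gdf11 held 47.1% of their summed counts. The others in all 30 libraries were Timeless (141321 counts), Apon (102370), the antisense gene Gm47093 (77688), Itga7 (26643) and Myl6 (11063). In the dorsal OS, their mean CPM was 1.23 times the ventral OS level for Timeless, 1.33 for Apon, 0.98 for Gm47093, 0.73 for Itga7 and 1.00 for Myl6, against 3.22 for Gdf11. The dorsal to ventral ratio of Gdf11 was the highest of the 6, and the difference between rows was not tested. The pRPE to OS ratio of mean CPM was 1.66 for Timeless, 1.39 for Apon and 1.46 for Gm47093. It was 1.69 for Itga7 and 0.90 for Myl6, against 1.71 for Gdf11. Between Pmel and Gdf11 the annotation holds 8 other genes with a row besides Sarnp, of which Gm47093 was the only row in all libraries.

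**Figure D3:**
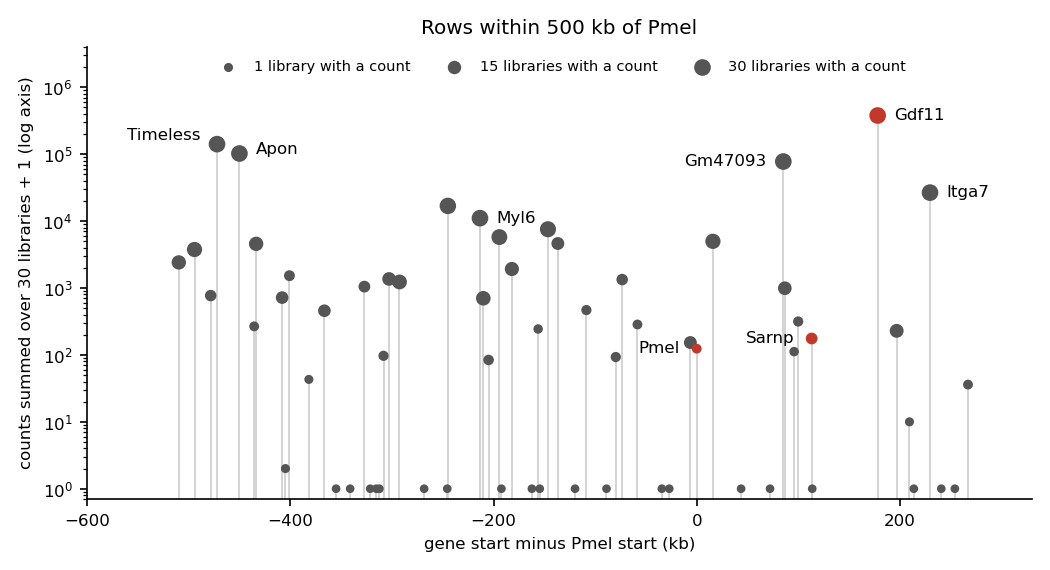
Counts summed over 30 libraries plus 1 (log axis) for the 62 rows within 500 kb of Pmel, by the distance in kb between each gene's start and that of Pmel; points grow with the number of libraries that have a count. Gdf11 (378423 counts) starts 178100 bases after Pmel (123 counts), and Sarnp (175 counts) lies between them.

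Whether the annotation could be displaced from the reads can be measured only as distance, since the table has no positions. The exons of each row were moved toward the start of the chromosome by every distance up to 500 kb, and in the other direction likewise, in steps of 50 bases, and the bases that fell on exons of another gene were counted. Unmoved, Gdf11 shared no exon base with Pmel. Moved by 162.1 to 187.5 kb, its exons fell on those of Pmel at 414 of the 20001 distances (2.07%), with at most 1413 shared bases at 166.35 kb, whereas 64.96% of all distances put them on exons of some protein-coding gene. The 5 other rows with counts in all libraries were paired with genes near such a distance, a choice made after values were seen. Gm47093 was paired with the ribosomal protein gene Rps26, Timeless and Apon with the mitochondrial ATP synthase gene Atp5b, Itga7 with the ribosomal protein pseudogene Rpsa-ps2 and Myl6 with Cnpy2. All 6 pairs shared exon bases at the 57 distances from 163.75 to 166.55 kb. The rows of the paired genes held 92 counts for Rps26, 44 for Atp5b, 42 for Cnpy2 and 0 for Rpsa-ps2. Other genes also lay under the moved exons: those of Itga7 fell on Gm47093 at all 57 distances, with 113 to 1693 bases against 21 to 692 on Rpsa-ps2, and the Gm47093 row held 77688 counts.

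Over those 57 distances the moved Gdf11 exons shared 496 to 1413 bases with Pmel, and at 54 of them also up to 845 bases with Dgka. They covered the whole of the 206-base coding exon printed above at all 57. At the middle distance of 165.15 kb they covered 626 of the 1879 coding bases of Pmel. Moved in the same way, the Sarnp exons fell on Rab5b at 55 of the 57 distances, on Suox at 19 and on Pmel at 4 (up to 88 bases), and the Rab5b and Suox rows were at 0. The Pmel exons fell on the pseudogene Gm9176 at all 57 and on the ribosomal protein gene Rpl41 at 37, while the Pmel row held 123 counts and the Rpl41 row 243. The distance was chosen from these rows, so the shared bases describe the annotation and are no test of where the reads lay.

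**Figure D4:**
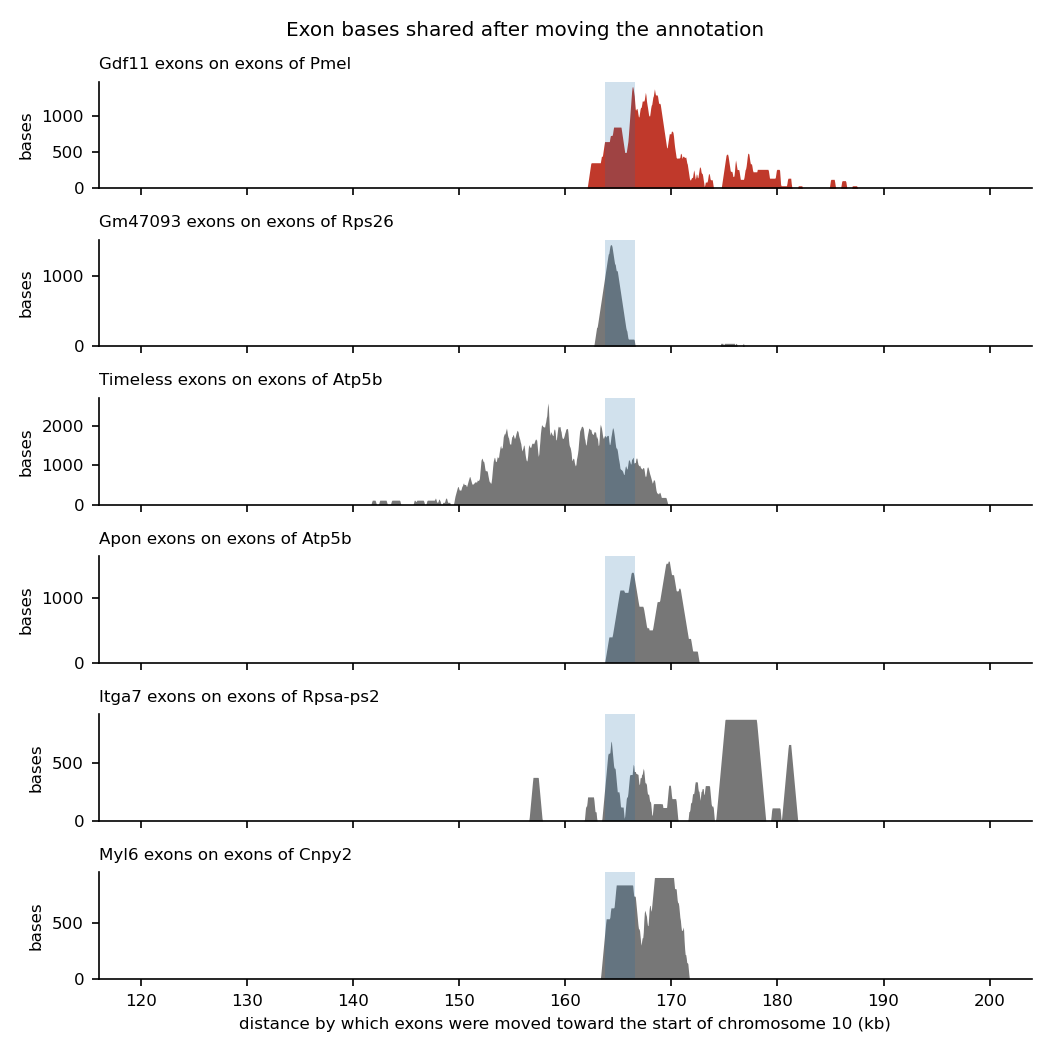
Exon bases shared between each row's gene and the paired gene (y axes) after moving the former toward the start of the chromosome (x axis, distance in kb). The blue band spans the 163.75 to 166.55 kb at which all 6 pairs share bases; Gdf11 on Pmel, in red, is above 0 throughout it.

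For the 7 pigment genes at 0, the fullest row within 500 kb was looked up in the same way. Within 500 kb of Tyr the fullest row was Grm5, with 1309 counts in 8 libraries, and it was also the fullest near Rab38. Near Tyrp1 it was Mpdz (1147 counts, 19 libraries), near Dct Abcc4 (721 counts, 6 libraries), near Rab32 Adgb (1003 counts, 1 library) and near Mlph Klhl30 (4680 counts, 23 libraries). Fasn, near Tspan10, had 40516 counts in all 30 libraries, with a pRPE to OS ratio of mean CPM of 1.09 and a dorsal to ventral ratio in the OS of 0.76. Gdf11, the fullest row near Pmel, had 1.71 and 3.22. A dorsal excess in the OS was also seen in sparse rows, Abcc4 with 29.1 CPM in the dorsal and 0.369 in the ventral OS and Grm5 with 41.5 and 0 CPM, whereas Klhl30 had 30.4 and 70.5 CPM, Mpdz 17.5 and 16.6 CPM and Adgb 0 and 47.0 CPM.

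The other genes of the GDF11 pathway were sparse. Of 26 (the related ligand Mstn, processing proteases, receptors, Smads, inhibitors and related ligands), 8 had no count in any library and 3 had counts in at least 15 libraries. Wfikkn1, a secreted inhibitor of GDF11, had counts in all 30, with medians of 414 CPM in the pRPE (248.7 to 754) and 366 CPM in the OS (105 to 895). Tgfbr1, a type I receptor through which GDF11 can signal, had counts in all 14 pRPE libraries (median 441 CPM) and 10 of 16 OS libraries (median 221 CPM). Pcsk5, a protease that cleaves the GDF11 precursor, had counts in 17 libraries. Of 7 that passed the filter, 0 were called in either direction along the dorsal to ventral or distal to proximal axis of either tissue, where 0% to 0.012% of all rows were. At an unadjusted p under 0.05, 2 were higher in the dorsal pRPE, 1 lower in the distal pRPE and 1 higher in the distal OS, beside 621 to 1038 of all 8337 rows. In the OS their median log2 difference between dorsal and ventral was -0.07, beside 0.53 over all rows and 1.88 for Gdf11. Wfikkn1 had -0.32 (edgeR adjusted p 1) and Tgfbr1 0.19 (adjusted p 1).

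Among 16 genes of the TREX complex and mRNA export, the partners of Sarnp, 11 had counts and 4 had counts in at least 15 libraries. Alyref, the adaptor that hands mRNA to the export receptor, had counts in 28 libraries, with medians of 296 CPM in the pRPE and 185 CPM in the OS. Thoc1, a core subunit, also had counts in 28 libraries, with medians of 280.4 CPM in the pRPE and 284 CPM in the OS. Nxf1, the export receptor, had counts in 22. Of the 6 that passed the filter, 0 were called by edgeR along the same axes, where 0% to 0.012% of all rows were, and 0 had an unadjusted p under 0.05, which 621 to 1038 of all 8337 rows had.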

How the data were processed

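Estimated counts per gene symbol of 30 E12 Geo-seq libraries were used as the authors deposited them, without normalization. The submitters' processing notes name FastQC, HISAT2, StringTie and GRCm38; the program that made the counts and its annotation release are not given in the sources used here. In 63 rows, 270 values were not whole and were rounded. Since the files hold no read positions, depth is the total count per library, and intervals and limits cover counting error only.

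Rows with more than 10 counts in at least 3 libraries were tested with edgeR 4.0.16 (TMM, quasi-likelihood, 1 level per region, batch as covariate, R 4.3.3), and called where the log2 fold change passed 0.58 either way with adjusted p under 0.05. DESeq2 1.42.0 was an alternative. The fit was also run on simulated counts less dispersed than these data (common dispersion 5.49), so that run does not show how it performs here. Relations used Python 3.11.15 and scipy 1.17.1 with 100000 resamples, or all pairings under 10 libraries, and a pseudocount of 1 CPM. Standard errors of 10 or more were treated as unusable. Exon positions came from GENCODE M21, sequences from the RefSeq genome and promoters of GRCm38.p6.

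The members and lists were chosen with earlier results of these data known. Named genes were drawn from the members, list genes with a mean of at least 20 counts (all of the pigment list) and rows within 500 kb of Pmel. The 5 rows most like Gdf11 and the fullest row near each pigment gene at 0 were named too. Not every gene that met this rule is named. Sparser marker genes (such as Otx2, Rpe65, Rlbp1, Zic1, Ptch1, Pax3, Sox10, Kit and those at 0) and Atp5b fall outside this rule and were chosen after their values were seen. Alternatives were DESeq2, TMMwsp, other filters, counts without mitochondrial rows, other covariates or pseudocounts, single batches, and single libraries left out. Added after seeing the data were a model with 4 levels, the exact permutation tests and the dorsal and ventral splits.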

Additional observations from a re-analysis of the deposited data

Results flagged for a closer look

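Single libraries stood apart from the rest of their group in sparse rows, by a gap to the next library that was large against the group's whole range. Of 16 combinations of a row and a group examined, 6 had such a gap. For measures without ties chance gives about 1 in 20, but in a row mostly at 0 a single library with counts makes the gap as wide as the range, so that rate does not apply here. For Pmel, pRPE ventral distal replicate 4 had 46.1 CPM (93 counts) against 4.07 CPM in the next of the 4 ventral distal and of the 7 ventral pRPE libraries. Pmel in pRPE dorsal proximal replicate 4 had 4.45 CPM (11 counts), while the other dorsal proximal and other dorsal pRPE libraries were at 0. For Sarnp, pRPE dorsal proximal replicate 2 had 17.0 CPM (54 counts) against 4.53 CPM in the next of the 7 dorsal pRPE libraries. Sarnp in OS dorsal distal replicate 3 had 15.3 CPM (30 counts) against 1.39 CPM in the next of the 7 dorsal OS libraries. No Gdf11 library stood apart in this way.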

How the results depend on the processing

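The dorsal to ventral log2 fold change of Gdf11 in the OS kept its direction under all 17 alternatives and all 16 omissions of a library. It passed the threshold with filterByExpr (1.79, adjusted p 0.0423), in batch B alone (2.68, adjusted p 0.00298), with DESeq2 (1.81, adjusted p 0.00179) and, added after seeing the data, with 4 levels (1.91, adjusted p 0.0271). The exact permutation tests of this row alone, also added then and not adjusted over all rows, gave 1.70 (p = 0.0014) over all libraries and 2.47 (p = 0.0159) in batch B. With a library left out it ran from 1.4 to 2.16 (edgeR adjusted p 0.0131 to 0.565). It passed the threshold without OS dorsal proximal replicate 1 (2.16), OS ventral distal replicate 1 (2.07), OS ventral middle replicate 3 (1.98) or OS ventral distal replicate 3 (1.73). The rows called in this contrast were 1 of 8337 in edgeR, 25 of 11217 with filterByExpr and 23 of 25243 without a filter. With DESeq2 they were 1368 of 8337.

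Library numbers were taken as a replicate block of 4 levels. Within a block no region recurred, and the methods name 4 control embryos, so blocks may stand for embryos. Deviations of libraries in the same block had a mean correlation of 0.0156 (-0.053 to 0.222). The mean was -0.00938 for other blocks of the same batch and -0.00344 for the other batch. With 56.8% of values at 0, these correlations cannot decide whether the blocks pair the libraries. Neither the permutation tests nor the relations took blocks into account. Within every block, each dorsal OS library had more Gdf11 CPM than each ventral one. With the replicate block the OS dorsal to ventral log2 fold change of Gdf11 was 1.89 (edgeR adjusted p 0.0577), and 5 rows were called.

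Between distal and proximal pRPE, Gdf11 changed sign in batch A alone (0.032) and ranged from -0.26 to 0.084 with a library left out. Sarnp changed sign between dorsal and ventral pRPE in batch A (-2.93; -1.27 to 3.53 with a library left out), and between distal and proximal pRPE with the replicate block (0.73) and with the number of detected rows (1.59; -0.81 to 2.47 with a library left out). The ratio of mean Sarnp CPM was 1.01 in batch B and 2.43 to 38.4 with a library left out, and could not be given in batch A, where the OS was at 0. With a library left out, Gdf11 gave 0.43 to 0.70 for dorsal to ventral pRPE, 0.34 to 1.50 for distal to proximal OS and 1.62 to 1.94 for the ratio of pRPE to OS, which was 2.58 with medians.

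The rho of Gdf11 with pigment rows missed the threshold after adjustment in the pRPE without mitochondrial counts (0.63), in batch B (0.93) and in the ventral libraries (0.68), and in the OS in batch A (0.79), batch B (0.78) and the ventral libraries (0.33). With a library left out it was 0.85 to 0.93 in the pRPE and 0.72 to 0.82 in the OS. The rho with widely expressed rows was 1 in batch A of the OS, past the threshold, and 0.51 to 0.65 (pRPE) and 0.09 to 0.44 (OS) with a library left out. With detected rows it was -0.14 in batch A of the pRPE, and 0.30 to 0.54 (pRPE) and -0.38 to -0.13 (OS) with a library left out. With Sarnp it was 0.44 to 0.72 (pRPE; past the threshold without pRPE ventral proximal replicate 2) and 0.25 to 0.46 (OS). Causes were not tested. At 1421918 to 6041021 counts a library, Pmel, and Sarnp in the OS, were too sparse for a fold change along the axes.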
